A study of Mus musculus with 16 samples.

Results

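The transcripts of 7 genes of the complement system were followed in RNA of the left ventricle (LV): the components C3, C4b and Cfd, the receptor C3ar1, and the regulators Serping1, Cd55 and Cd59a. A gene entered where a row of the deposited transcript table carried exactly its symbol. Of the 7 genes, 6 were listed among the 11811 transcripts, and all 6 were among the 11544 transcripts that reached a mean level of 0.5 FPKM across the 16 libraries and were tested. Cfd, which encodes the protease factor D (adipsin), was not analysed here. LV free wall tissue came from 8 TGAC8 and 8 WT mice, males of 3 months on the C57BL/6 background, with 1 library per mouse. TGAC8 mice carry a human cDNA for ADCY8, one of the enzymes that form cAMP, behind the murine α-myosin heavy chain promoter. That promoter works in heart muscle cells, whereas the RNA came from whole tissue and holds every cell type of the LV, so in these samples fewer cells of a type and less RNA per cell cannot be told apart. WT mice carry no transgene.

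Complement is a cascade of proteases and their substrates that tags and opens foreign or damaged cells. The classical and lectin routes lead through C1 or mannose-binding proteins to C4 and C2, the alternative route runs through factor B and factor D, and both meet at C3, whose fragments label surfaces and, as C3a, signal through the receptor C3AR1. Host cells carry membrane regulators that stop the cascade on their own surface, and soluble regulators stop it in plasma and tissue fluid. Most complement protein of the blood is made in the liver, and fibroblasts and macrophages of other tissues make several components locally.

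Human ADCY8 was at 411 to 602 FPKM in the TGAC8 libraries. It was listed at 0 in the WT libraries other than replicate 2, which had 0.345 FPKM. FPKM is a fragment number per length of transcript and relative to all fragments mapped in the library, so levels of different genes can be set side by side. The authors give only a range of reads generated per library, so the number of fragments behind a value is not known exactly. Fold changes below are differences of mean log2(FPKM + 0.1), TGAC8 minus WT, from limma, with p-values adjusted over all tested transcripts by the Benjamini-Hochberg method and a threshold of 0.05. Over all tested transcripts the median of these differences was 0.12 as deposited and 0.0074 after geometric scaling, which divides a library by a factor, the median over transcripts of its level relative to their geometric means. The balance of higher and lower transcripts moves with this scale, so both are given where they differ in the call. Tnnt2, which marks heart muscle, the labelled tissue, stood at 4175 ± 357 FPKM in TGAC8 and 4455 ± 151 FPKM in WT (SD, n = 8 each).

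Of the 6 complement genes, 5 were higher in TGAC8 LV and 0 were lower, where 25.6% of all tested transcripts passed, 20.9% being higher and 4.65% lower. C4b and C3 differed most, Serping1 and Cd55 followed, Cd59a passed the test by a small difference, and C3ar1 did not pass. At an unadjusted limma p under 0.05 all 6 were higher and 0 lower, against 31% and 6.55% of all tested transcripts at that threshold. The median log2 fold change of the 6 genes was 0.68, against 0.12 over all tested transcripts. On the geometric scale 4 of the 6 were higher and 0 lower (median 0.57), where 20.5% of transcripts passed, 9.74% being higher and 10.8% lower. The 8 TGAC8 values lay above the 8 WT values without overlap in 2 of the 6 genes, C4b and Serping1, as in 4.79% of all tested transcripts. The genes were chosen with earlier results of these data known, so these counts and medians describe them and do not test an enrichment.

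**Figure D1:**
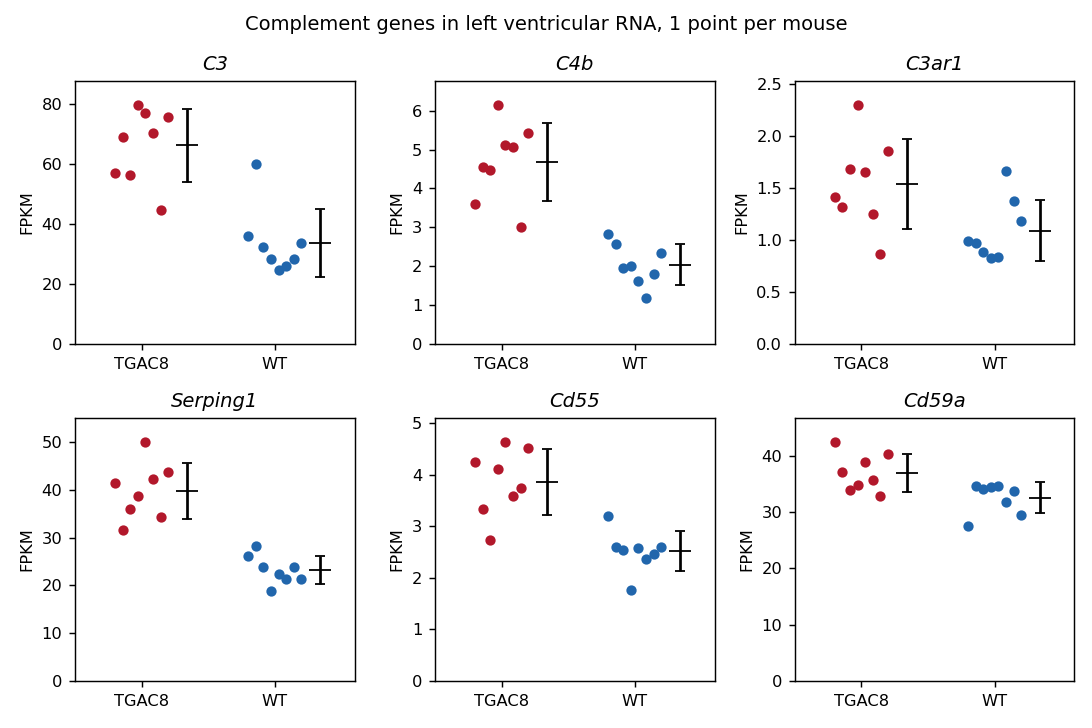
FPKM of the 6 complement genes (vertical axes from 0) in the 8 TGAC8 libraries and the 8 WT libraries, 1 point per mouse in order of replicate number, with the mean and SD to the right of each group. C4b and Serping1 do not overlap between genotypes, and 1 WT library, replicate 2, stands among the TGAC8 values of C3.

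C3 encodes the central component that every route of activation cleaves. It was the most abundant of the 6 transcripts in TGAC8 LV, at 44.8 FPKM in the lowest, 69.5 FPKM in the median and 79.5 FPKM in the highest TGAC8 library, against 24.5, 30.4 and 59.9 FPKM in the WT libraries. The genotypes overlapped through a single WT library. WT replicate 2 had 59.9 FPKM, above 3 of the TGAC8 libraries, and the other 7 WT libraries had at most 36.1 FPKM, below every TGAC8 library. The mean was 66.1 ± 12.2 FPKM in TGAC8 and 33.6 ± 11.3 FPKM in WT (SD, n = 8 each), a ratio of 1.97. On the log2 scale TGAC8 was higher by 1.01 (standard error, SE, of 0.159, adjusted p = 0.000187), and without WT replicate 2 it was 1.13 (adjusted p = 5.01e-06). C3 lies on chromosome 17 of mm10 from 57203970 to 57228136 on the minus strand, as the GENCODE vM21 annotation gives it.

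C4b encodes component C4 of the classical and lectin routes, whose cleaved form helps to build the C3-cleaving enzyme. Its level was 3.004 FPKM in the lowest, 4.81 FPKM in the median and 6.14 FPKM in the highest TGAC8 library, against 1.19, 1.98 and 2.83 FPKM in WT. Every TGAC8 library was above every WT library, the nearest being TGAC8 replicate 7 and WT replicate 1. The difference on the log2 scale was 1.17 (SE 0.164, adjusted p = 5.63e-05), and 98.9% of all tested transcripts had a fold change no larger than this. C4b lies on chromosome 17 from 34728380 to 34743882, and its near copy C4a from 34809092 to 34823464. Of the stretches of 75 bases in the longest coding C4b transcript, the read length of these libraries, 23.5% also occur in transcripts of C4a, so part of the C4b value could come from reads of C4a, which was not analysed here.

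C3ar1 encodes the receptor of C3a on myeloid and other cells. It had the lowest level of the 6 transcripts, with 0.866, 1.53 and 2.30 FPKM in the lowest, median and highest TGAC8 libraries, against 0.831, 0.980 and 1.66 FPKM in WT libraries. The groups overlapped over most of their range. TGAC8 replicate 7 lay among the low WT libraries, and WT replicate 6 among the middle TGAC8 libraries. The log2 fold change of 0.45 (95% interval of 0.083 to 0.82 before adjustment, adjusted p = 0.0672) did not pass the test. It passed without TGAC8 replicate 7 (adjusted p = 0.0184) and without WT replicate 6 (adjusted p = 0.029), so 1 library of either genotype decided the call.

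Serping1 encodes the C1 inhibitor, a serpin that blocks C1r, C1s and the mannose-binding lectin proteases and, outside complement, kallikrein and factor XII. It had 31.6 FPKM in the lowest, 40.03 FPKM in the median and 50.1 FPKM in the highest TGAC8 library, against 18.9, 23.1 and 28.2 FPKM in WT. No WT library reached the lowest TGAC8 library. TGAC8 was higher by 0.77 on the log2 scale (SE 0.0922, adjusted p = 1.19e-05) and 0.65 after geometric scaling (adjusted p = 2.52e-05), the smallest adjusted p among the 6 genes on each scale. The gene lies on chromosome 2 from 84765387 to 84775444.

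Cd55 encodes decay-accelerating factor, a protein held in the membrane by a GPI anchor that takes apart the C3-cleaving enzymes. It was at 2.72 FPKM in the lowest, 3.93 FPKM in the median and 4.64 FPKM in the highest TGAC8 library, against 1.76, 2.57 and 3.20 FPKM in WT libraries. The groups overlapped in 1 WT library, replicate 1, and 1 TGAC8 library, replicate 3. On the log2 scale the difference was 0.60 (SE 0.115, adjusted p = 0.00101). The locus that the deposited table gives for this row runs on chromosome 1 from 130388526 to 130463021. That interval holds Cd55 (130439027 to 130462744) and also its neighbor Cd55b (130388537 to 130423009), and 9.39% of the 75-base stretches of the Cd55 transcript recur in Cd55b, so the value cannot be given to Cd55 alone.

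Cd59a encodes a second GPI-anchored regulator, which keeps the terminal components from forming a pore. Its levels were 32.9, 36.3 and 42.5 FPKM in the lowest, median and highest TGAC8 libraries, against 27.5, 33.9 and 34.7 FPKM in WT, with 6 of the TGAC8 libraries above every WT library. The small log2 difference of 0.18 (SE 0.0627) had an adjusted p of 0.0386. This is close to the shift of 0.12 of all tested transcripts, and after geometric scaling the log2 fold change was 0.068 (95% interval of -0.043 to 0.18 before adjustment, adjusted p = 0.411). The call was also lost without TGAC8 replicates 1, 2, 5 or 8 and without WT replicates 1, 6 or 8, each left out in turn (adjusted p of 0.0506 to 0.0765). The gene lies on chromosome 2 from 104095801 to 104115354, next to Cd59b, which shares 1.73% of the 75-base stretches of its transcript.

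The order of levels differed between the genotypes. In TGAC8 LV it ran C3 (66.1 ± 12.2 FPKM), Serping1 (39.8 ± 5.88 FPKM), Cd59a (37.0 ± 3.37 FPKM), C4b (4.67 ± 1.01 FPKM), Cd55 (3.87 ± 0.643 FPKM) and C3ar1 (1.54 ± 0.433 FPKM; SD, n = 8). In WT LV it ran C3 (33.6 ± 11.3 FPKM), Cd59a (32.6 ± 2.74 FPKM), Serping1 (23.3 ± 2.95 FPKM), Cd55 (2.52 ± 0.392 FPKM), C4b (2.04 ± 0.529 FPKM) and C3ar1 (1.09 ± 0.295 FPKM). Serping1 was above Cd59a in 6 of the 8 TGAC8 libraries and Cd59a above Serping1 in 8 of the 8 WT libraries. C4b was above Cd55 in 6 of 8 TGAC8 libraries, and Cd55 above C4b in 7 of 8 WT libraries. C3 and Cd59a were not separated by their spread in WT LV, where C3 was the higher in 3 of 8 libraries.

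Ratios between genes of the same library do not depend on how libraries are scaled to each other. After the values were seen, 5 of them were chosen and compared by exact 2-sided permutation tests over the 16 libraries. Because of this choice their p-values, also where adjusted over the 5 ratios, describe the chosen ratios and are no independent test. C3 over Cd59a was 1.79 ± 0.323 in TGAC8 and 1.04 ± 0.340 in WT (SD, n = 8 each), a mean log2 difference of 0.82 (exact permutation p = 0.00124, adjusted p = 0.00311 over the 5 ratios). Serping1 over Cd59a was 1.075 ± 0.130 in TGAC8 and 0.720 ± 0.119 in WT, a mean log2 difference of 0.59 (exact permutation p = 0.000311, adjusted p = 0.00155). Cd55 over Cd59a was 0.104 ± 0.0140 in TGAC8 and 0.0784 ± 0.0184 in WT (exact permutation p = 0.00684, adjusted p = 0.0114). In these 3 ratios the TGAC8 and WT libraries still overlapped. All 3 have Cd59a as denominator, which had the smallest log2 fold change of the genes described one by one above. They therefore largely restate the fold changes given there. C3 over C4b (14.3 ± 1.13 in TGAC8, 16.7 ± 3.82 in WT) and C3 over Serping1 (1.67 ± 0.306 in TGAC8, 1.43 ± 0.323 in WT) did not pass (exact permutation, adjusted p = 0.117 for both). C3 over C4b passed without WT replicate 1 (exact permutation, adjusted p = 0.0377) and C3 over Serping1 without WT replicate 2 (adjusted p = 0.0225).

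Of the 6 genes, 4 have an entry in the RefSeq promoter table of GRCm38.p6 (C3, Cd55, Cd59a and C3ar1). The 250 bases before the start of C3 and of Cd55 are printed here because both transcripts rose and they differ widely in level. They run 5′ to 3′ on the strand of the gene and end at the base before the start, and capitals mark a match to any of 6 motifs searched on both strands. The motifs were a cAMP response element (CRE, TGACGTCA) and its shorter core (TGACG, which also lies in the full element), an NF-κB motif (GGG and TTCC with any 3 bases between them), an interferon-gamma activated sequence (GAS, TTCNNNGAA), an interferon-stimulated response element (ISRE, GAAA and GAAA with any 2 bases between them) and a C/EBP motif (TTGCNNAA).
C3, chr17:57228137-57228386, minus strand: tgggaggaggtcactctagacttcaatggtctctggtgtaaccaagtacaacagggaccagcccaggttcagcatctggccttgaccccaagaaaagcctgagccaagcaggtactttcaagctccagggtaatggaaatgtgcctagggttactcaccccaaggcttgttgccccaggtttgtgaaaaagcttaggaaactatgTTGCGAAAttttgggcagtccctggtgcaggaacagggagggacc
Cd55, chr1:130462745-130462994, minus strand: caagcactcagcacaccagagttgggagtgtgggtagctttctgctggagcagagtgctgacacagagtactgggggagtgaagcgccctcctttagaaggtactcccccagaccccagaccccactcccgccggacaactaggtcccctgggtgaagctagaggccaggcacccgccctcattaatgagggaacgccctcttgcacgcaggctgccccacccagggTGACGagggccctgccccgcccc

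The C3 window held 1 match, the C/EBP letters TTGCGAAA from 45 to 38 bases before the start, and 9.56% of all 32851 windows of this length in the table hold such a match. The Cd55 window held the CRE core TGACG from 23 to 19 bases before the start, as 17.8% of windows do. In Cd59a the only match was to the ISRE letters (2.98% of windows), from 187 to 178 bases before the start, and in C3ar1 to the NF-κB letters (4.65% of windows), from 14 to 5 bases before it. No window of the 4 held the full CRE (1.55% of windows) or the GAS letters (7.02%). A match of letters is a description of the window and shows no binding.

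The rest of the pathway was described from 4 lists of 61 genes in all, of which 30 were listed and tested. Of these 15 were higher and 1 was lower in TGAC8 LV, where 20.9% of all tested transcripts were higher and 4.65% lower. The median log2 fold change of the 30 genes was 0.42 against 0.12 over all tested transcripts. Geometric scaling gave 13 higher and 2 lower, where 9.74% of all tested transcripts were higher and 10.8% lower. The median was then 0.32 against 0.0074 over all tested transcripts. Without the 6 genes above, 10 of 24 were higher and 1 lower as deposited. Complement genes of the membrane attack complex were represented by C7 and C8g alone. The lists were also chosen with earlier results of these data known, so their counts are a description and no test of the pathway.

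Among 10 tested genes of the classical and lectin routes 7 were higher on both scales, against 20.9% of all tested transcripts as deposited and 9.74% after geometric scaling. The 3 chains of C1q, the part of C1 that recognizes its target and a product of macrophages, were all higher. C1qa stood at 15.6 ± 1.96 FPKM in TGAC8 and 10.99 ± 0.990 FPKM in WT (SD, n = 8 each). It did not overlap between genotypes, and its difference was 0.50 on the log2 scale (adjusted p = 9.68e-05). For C1qb the difference was 0.64 (adjusted p = 0.000147), and for C1qc 0.56 (adjusted p = 0.000386). The C1 protease genes C1ra (0.71, adjusted p = 0.00145) and C1s1 (0.57, adjusted p = 0.000309) were higher by similar log2 fold changes. The collectin gene Colec12 was higher too (0.39, adjusted p = 0.00564), a call that was lost after quantile normalization (adjusted p = 0.0586) and with geometric scaling and a replicate block together (adjusted p = 0.0604). By contrast, Colec11 and Masp1 of the lectin route did not pass (0.094 and -0.16, adjusted p = 0.568 and 0.73), and Colec11 turned in sign after geometric scaling.

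In the alternative route, Cfb, which encodes factor B, had the largest log2 fold change of the 30 genes at 1.42 (SE 0.270, adjusted p = 0.000982). Levels were low, at 0.467 ± 0.254 FPKM in WT and 1.34 ± 0.480 FPKM in TGAC8 (SD, n = 8 each). The WT mean lay under the 0.5 FPKM asked of the mean over all libraries. Cfb therefore entered the test, and the 15 higher calls, only through TGAC8. Properdin (Cfp) and C7, a component of the terminal pore, had log2 fold changes of 0.47 and 0.48 that did not pass (adjusted p = 0.0755 and 0.0911). Each passed in at least 1 fit with a library left out, Cfp without TGAC8 replicate 7 (adjusted p = 0.0471), WT replicate 2 (0.0446) or WT replicate 7 (0.0482), and C7 without TGAC8 replicate 7 (0.0155).

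Of 9 tested regulators 4 were higher and 1 lower as deposited, while geometric scaling left 2 higher and 1 lower. The shares of all tested transcripts were 20.9% higher and 4.65% lower as deposited, and 9.74% and 10.8% after geometric scaling. Serping1, Cd55 and Cd59a, described above, were among those higher as deposited. Clusterin (Clu), a secreted chaperone that also binds the terminal complex, was the most abundant transcript of the 30 at 147 ± 25.4 FPKM in TGAC8 and 133 ± 10.3 FPKM in WT and did not pass (0.12, adjusted p = 0.355). The membrane regulator Cr1l, the rodent Crry, stood at 5.48 ± 0.870 FPKM in TGAC8 and 5.73 ± 0.814 FPKM in WT (log2 fold change of -0.067, 95% interval of -0.28 to 0.14, adjusted p = 0.659). C1qbp, which binds C1q and is mostly a mitochondrial matrix protein, was lower, at 44.0 ± 3.44 FPKM in TGAC8 and 50.3 ± 3.37 FPKM in WT (log2 fold change of -0.20, adjusted p = 0.013).

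Of 6 tested receptors 2 were higher and 0 lower as deposited, and 2 higher and 1 lower after geometric scaling. All tested transcripts had shares of 20.9% higher and 4.65% lower as deposited, and 9.74% and 10.8% after geometric scaling. The 2 higher genes were the chains of complement receptor 3, Itgb2 with a log2 difference of 0.81 (adjusted p = 7.64e-05) and Itgam with one of 0.58 (adjusted p = 0.00568). Itgb2 lay above WT without overlap, as did 4.79% of all tested transcripts. Itgam did not pass after quantile normalization (adjusted p = 0.0526) or with geometric scaling and a replicate block together (adjusted p = 0.0593). The C5a receptor gene C5ar1 was at 0.991 ± 0.355 FPKM in TGAC8 and 0.913 ± 0.252 FPKM in WT (SD, n = 8 each) and did not pass (log2 fold change of 0.079, adjusted p = 0.801), with a sign that turned after geometric scaling. Calreticulin (Calr), a chaperone of the endoplasmic reticulum that also acts as a C1q receptor, did not pass as deposited (-0.18 on the log2 scale, adjusted p = 0.0686). It passed as lower on the geometric scale (-0.29, adjusted p = 0.00117), and as deposited without TGAC8 replicate 8 (adjusted p = 0.00901) or WT replicate 3 (adjusted p = 0.0443).

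**Figure D2:**
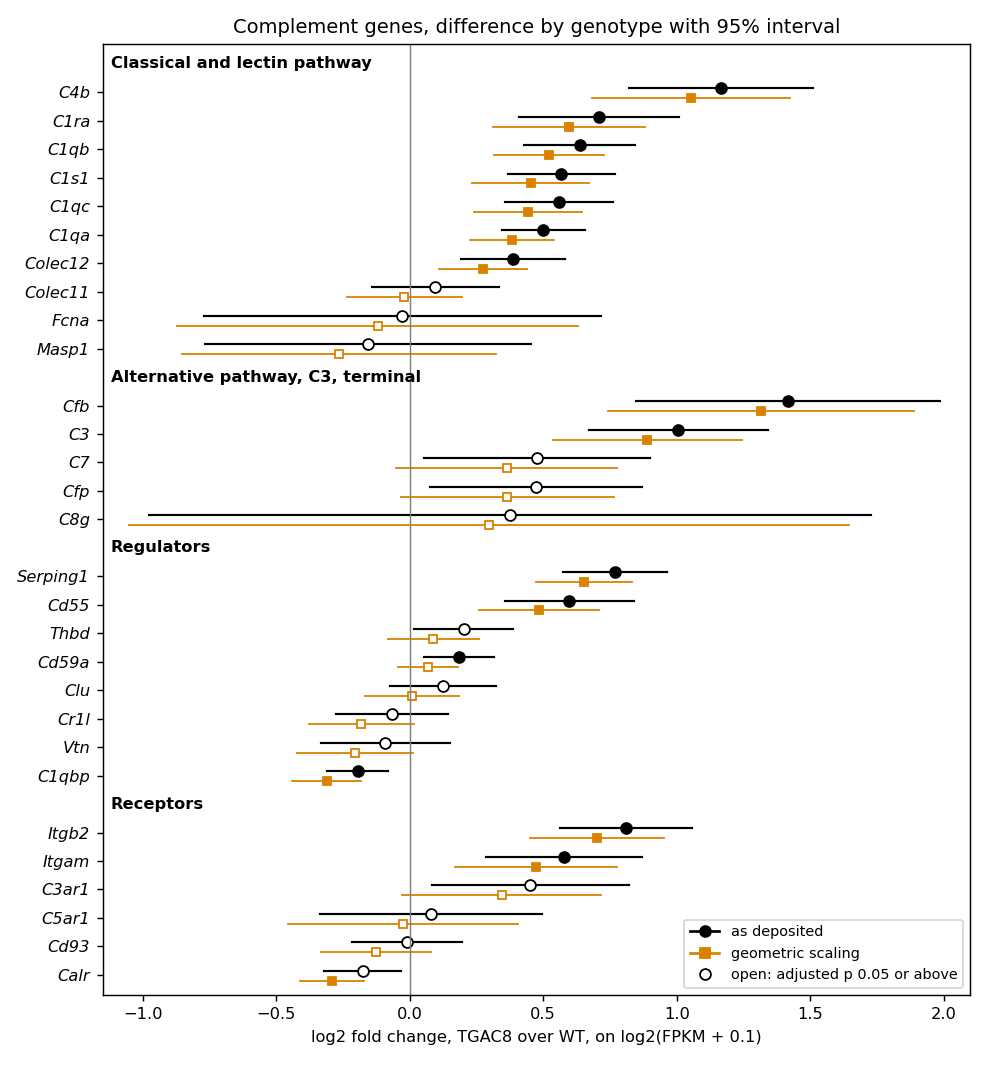
Log2 fold change, TGAC8 over WT, of 29 of the tested complement genes (horizontal axis) by role, with 95% intervals before adjustment, as deposited (black circles) and after geometric scaling (orange squares). Filled symbols passed the adjusted threshold of 0.05: 14 genes lie above 0 and 1 below among the filled black circles, and Cd59a is filled in black and open in orange.

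Serping1 protein also stops the contact system that releases kinins, so 19 genes of the kinin, contact and plasminogen systems were read beside it. Of the 6 that were tested, 3 were higher and 0 lower, namely Serpine2, an inhibitor of thrombin and plasminogen activators (log2 fold change of 1.01, adjusted p = 1.69e-06), Ace, which breaks down bradykinin (0.57, adjusted p = 0.000159), and the peptidase gene Mme (0.34, adjusted p = 0.0255). On the geometric scale 2 were higher and 0 lower, as Mme did not pass (0.23, adjusted p = 0.136). Among all tested transcripts 20.9% were higher and 4.65% lower as deposited, and 9.74% and 10.8% on the geometric scale. The plasminogen activator gene Plat did not pass, at 0.15 on the log2 scale (adjusted p = 0.425). For the anchor of CD55 and CD59A, 22 genes of GPI anchor synthesis were tested, of which 2 were higher (Pigq, 0.43, adjusted p = 0.0124, and Pigu, 0.30, adjusted p = 0.0142) and 0 lower (3 higher and 2 lower at an unadjusted limma p under 0.05, against 31% and 6.55% of all tested transcripts). Their median log2 fold change of 0.075 was below the 0.12 of all tested transcripts, and the geometric scale gave 0 higher and 2 lower (Pgap2 and Pigw).

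Markers of the cell types that make complement moved in the same libraries. The counts below stand against 20.9% higher and 4.65% lower of all tested transcripts as deposited, and 9.74% and 10.8% after geometric scaling. Of 14 fibroblast markers 12 were higher and 0 lower (11 higher after geometric scaling). Their summed level was 216 to 388 FPKM in TGAC8 and 175 to 203 FPKM in WT, without overlap. Of 14 macrophage and monocyte markers 9 were higher and 0 lower (6 higher after geometric scaling). Their summed level was 47.5 to 61.0 FPKM in TGAC8 and 30.3 to 49.4 FPKM in WT, and WT replicate 2, the WT library with the highest C3, also had the highest macrophage sum of the WT libraries. Ms4a7, among the 9 higher (log2 fold change of 1.47), had a mean of 1.52 FPKM in TGAC8 and 0.4999 FPKM in WT. The WT mean lay just under the 0.5 FPKM asked, so Ms4a7 entered the test only through TGAC8. No listed marker of either cell type was at 0 in any library. Of the epicardial and mesothelial markers 3 were tested and 1 was higher (Krt18, log2 fold change of 2.08, adjusted p = 0.00146), with a summed level of 1.69 to 3.09 FPKM in TGAC8 and 0.994 to 1.96 FPKM in WT. Krt18 had a mean of 1.01 FPKM in TGAC8 and 0.158 FPKM in WT, so it entered the test only through TGAC8. Wt1 (0.37, adjusted p = 0.216) and Tbx18 (0.19, adjusted p = 0.295) did not pass. Of 10 endothelial markers 0 passed the limma test (1 was higher and 0 lower at an unadjusted p under 0.05, against 31% and 6.55% of all tested transcripts), with a summed level of 149 to 193 FPKM in TGAC8 and 161 to 177 FPKM in WT. Cardiomyocyte markers were lower in 5 of 12 cases and higher in 1 (Ryr2) as deposited, and lower in 9 and higher in 1 on the geometric scale. Their summed level was 28080 to 33534 FPKM in TGAC8 and 33908 to 36788 FPKM in WT, lower in TGAC8 without overlap.

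**Figure D3:**
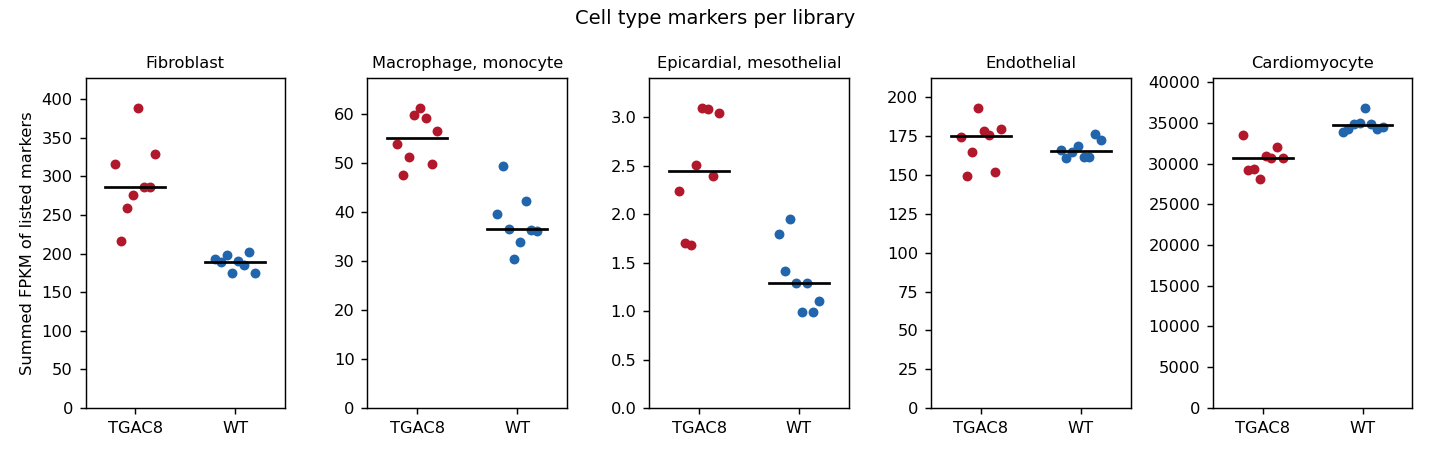
Summed FPKM of the listed markers of 5 cell types (vertical axes from 0, a scale for each) in the 8 TGAC8 and 8 WT libraries, 1 point per mouse, with a line at the median. The fibroblast sums are higher and the cardiomyocyte sums lower in TGAC8, each without overlap between genotypes. The endothelial sums and the others overlap.

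C3, C4b, Serping1 and Cd55 were set against the summed fibroblast markers of the same library, and Cd59a was not. The ratio of means, TGAC8 over WT, was 1.14 for Cd59a and 1.56 for the fibroblast sum. That sum is a level of marker RNA and not a count of fibroblasts, and Dcn alone had a mean of 123 FPKM in TGAC8 and 92.2 FPKM in WT. Per 100 FPKM of summed fibroblast markers there were 22.9 ± 5.41 FPKM of C3 in TGAC8 and 17.9 ± 6.04 FPKM in WT, 1.62 ± 0.429 FPKM of C4b in TGAC8 and 1.09 ± 0.289 FPKM in WT, 13.6 ± 0.929 FPKM of Serping1 in TGAC8 and 12.3 ± 1.32 FPKM in WT, and 1.32 ± 0.158 FPKM of Cd55 in TGAC8 and 1.33 ± 0.191 FPKM in WT (SD, n = 8 each). C3ar1 per 100 FPKM of macrophage and monocyte markers was 2.80 ± 0.674 FPKM in TGAC8 and 2.89 ± 0.704 FPKM in WT. All 5 of these ratios overlapped between genotypes, and the part of either cell type in the difference of a gene was not tested.

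Whether the genes varied together from mouse to mouse was read within each genotype over its 8 libraries on the log2(FPKM + 0.1) scale, for the 15 pairs of genes and 3 pairs of a gene with a marker sum, 36 relations in all. C3 and C4b were closest, with Pearson's r = 0.94 in TGAC8 LV (exact permutation p = 0.000273, adjusted p = 0.00982) and Spearman's rho = 0.95 (exact permutation p = 0.00114, adjusted p = 0.0402), and r = 0.96 without the 2 libraries farthest from the median of C3. In WT LV r was 0.71 (exact permutation p = 0.055, adjusted p = 0.247) and rho 0.93 (exact permutation p = 0.00223, adjusted p = 0.0402), with r = 0.90 without the 2 farthest libraries, 1 of which was replicate 2. Serping1 and the fibroblast sum had r = 0.92 in TGAC8 (exact permutation p = 0.00218, adjusted p = 0.0393) and rho = 0.81 (exact permutation p = 0.0218, adjusted p = 0.261), with r = 0.70 without the 2 farthest libraries, and r = 0.62 in WT (exact permutation p = 0.1, adjusted p = 0.367). No other relation passed by r. Over the 15 pairs r had a median of 0.42 in TGAC8, where 15 were positive, and of -0.041 in WT, where 7 were. The pairs share genes and libraries and are not independent, and the share of positive pairs over all tested transcripts was not computed. Whether the relations differed between the genotypes was not tested.

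**Figure D4:**
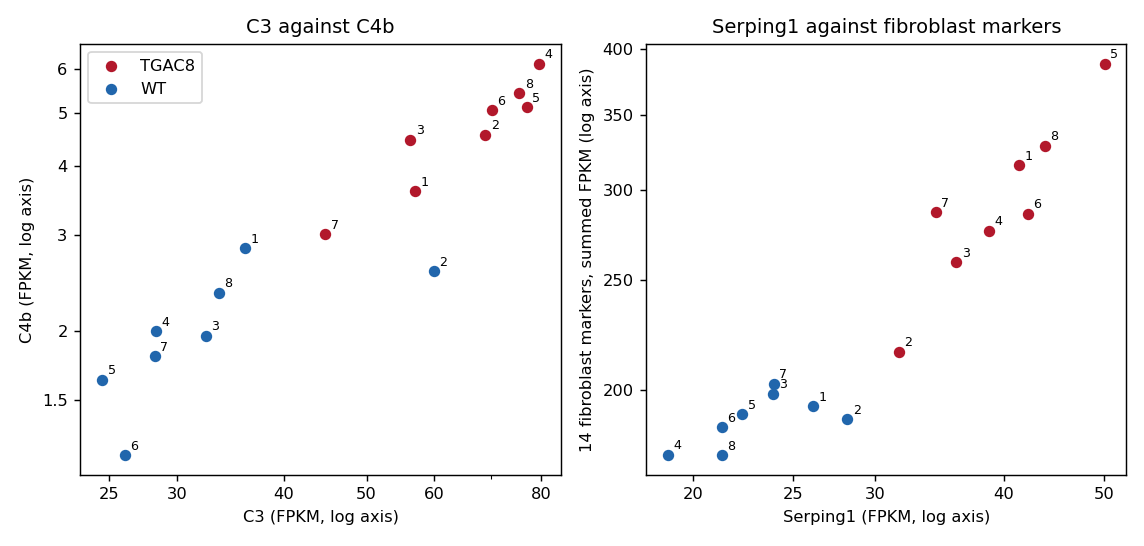
C4b against C3 (left, FPKM, log axes) and the summed FPKM of 14 fibroblast markers against Serping1 (right, log axes), 1 point per mouse with its replicate number. The C3 and C4b points rise together within each genotype, and WT replicate 2 lies to the right of the other WT libraries at 59.9 FPKM of C3.

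The transcripts most like each gene were sought over the 16 libraries after the mean of its genotype was taken from each value, with Pearson's r as a description. Each is the top of a search over 11544 transcripts, in which a high r can arise without a relation, and no test was made. Closest to C3 were the chemokine gene Ccl8 (r = 0.82), the interferon-regulated protease gene Usp18 (0.81) and the retinoic acid synthesis gene Aldh1a2 (0.79). Closest to C4b were again Ccl8 (0.81), then C3 itself (0.79) and Wdfy1 (0.76). The closest transcript to Serping1 was C1ra (0.89), whose product the C1 inhibitor blocks, followed by the macrophage receptor gene Csf1r (0.86) and the splicing regulator gene Ptbp3 (0.85). Cd55 was followed by Lysmd2 (0.89), Reep4 (0.82) and the fibroblast marker Mfap5 (0.80), Cd59a by Malsu1 (0.86), Tmem41a (0.84) and Bcl2l11 (0.83), and C3ar1, among others, by Tbc1d20 (0.82) and the lysozyme gene Lyz2 (0.79). Ccl8 itself was higher by a log2 fold change of 2.29, at a mean of 6.15 FPKM in TGAC8 and 1.53 FPKM in WT (adjusted p = 0.0027).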

How the data were processed

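Libraries of 16 LV samples, 8 per genotype, were read from 1 table of the series. The authors trimmed the reads and aligned them with TopHat to the mouse build mm10, to which they added the human ADCY8 sequence (TopHat2 2.1.1 in the submitters' processing notes), and FPKM per library were computed with Cufflinks 2.1.1 by the authors. Annotation and strand setting: not given in the sources used here. The deposited table also holds the authors' own Cuffdiff comparison, with FPKM per genotype, a log2 fold change, a test score and p-values with q-values in 6 columns, which were not used. Depth per library could not be read from FPKM, so precision rests on the spread between mice.

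Transcripts with a mean of at least 0.5 FPKM were tested with limma 3.58.1 (R 4.3.3) on log2(FPKM + 0.1), 2-sided, with a variance trend and Benjamini-Hochberg adjustment at 0.05, after a test on simulated data. The genes and lists were chosen with earlier results of these data known, and the motifs and within-library ratios after the values were seen. Named genes were the 7 given, any other complement gene that passed or had a mean of at least 1 FPKM, the extremes of the other lists, and the 3 transcripts most like each gene; 3 transcripts that this rule names are not reported here. Permutation tests enumerated all splits or pairings (Python 3.11.15, scipy 1.17.1). Positions are from GENCODE vM21 on mm10. Alternatives were pseudocounts of 1 and 0.01, other filters, geometric and quantile scaling, an exact rank-sum test, array weights, other models of the variance, a block for replicate number, and leaving out each library. A planned comparison of C4b, Cd55 and Cd59a with their near copies was not run, as the copies were not analysed here. Neutrophil, lymphocyte, adipocyte and mural cell markers were also listed: 0 of 2, none tested, 1 of 5 and 3 of 10 (2 after geometric scaling) were higher, with 0 lower. The share of all tested transcripts that were higher was 20.9% as deposited and 9.74% after geometric scaling.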

Additional observations from a re-analysis of the deposited data

Results flagged for a closer look

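Among 22 groups of 8 libraries examined for a library apart from the rest, 2 were found, where chance gives about 1 in 20. C3 in WT replicate 2 stood at 59.9 FPKM, and the next WT library had 36.1 FPKM, a gap of 0.673 of the whole range of the WT libraries. The summed cardiomyocyte markers of WT replicate 5 stood at 36788 FPKM, and the next WT library had 35035 FPKM, a gap of 0.609 of the range.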

How the results depend on the processing

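The fold changes of the 6 genes and the counts of calls were recomputed under 28 alternatives, 16 of which left out 1 library. The ratios between genes were recomputed with each library left out, and the relations after geometric scaling. List medians and marker sums were not recomputed under the other alternatives. C3, C4b, Serping1 and Cd55 kept their direction and their call in all 28 of them, and C3ar1 did in 26. The log2 fold change of Cd59a kept its sign but did not pass after geometric scaling (0.068), after quantile normalization (0.13), and, at 0.18, without a variance trend (adjusted p = 0.0554), by the exact rank-sum test (adjusted p = 0.0589) and with the replicate number as a block (adjusted p = 0.113). With geometric scaling and the block together it was 0.068 (adjusted p = 0.483). With 1 library left out it ranged from 0.15 to 0.21, and that of C3ar1 from 0.37 to 0.55. Replicate numbers did not pair TGAC8 with WT libraries (correlation of the deviations of same-numbered libraries from -0.0617 to 0.00672), and the block left 2444 calls over all transcripts against 2954. All transcripts gave 2417 higher and 537 lower calls as deposited, 1124 higher and 1244 lower after geometric scaling, 1057 and 1054 after quantile normalization, and 920 and 1022, or 1942 in all, with geometric scaling and the block. Lower calls among the complement lists were 2 rather than 1 after geometric scaling, with and without the block, and ranged from 1 to 2 with 1 library left out. Of the relations within genotypes 2 passed by r as deposited and 1 after geometric scaling, when Serping1 with the fibroblast sum no longer passed (adjusted p = 0.125). By rho, C3 with C4b passed in both genotypes as deposited and in neither after geometric scaling. The exact permutation test of rho then gave an adjusted p of 0.13 in TGAC8 and 0.0804 in WT. FPKM carry no counts, and the counting error of low transcripts such as Cfb and C3ar1 was not estimated.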
